A study of Mus musculus with 14 samples.

Results

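The genes described here are 7 genes by which alternatively activated macrophages are commonly recognized in the mouse: Chil3, Mrc1, Cd163, Retnla, Mgl2, Clec10a and Folr2. They were taken by symbol from the 24411 genes counted in bulk RNA sequencing of mouse kidneys, a method that counts the RNA of all cells of the tissue together. The libraries came from male C57/B6 mice aged 8 weeks, with 4 libraries at day 0 and 5 libraries each at day 1 and day 3 after renal ischemia/reperfusion injury (IRI), a model of acute kidney injury (AKI) in which the blood supply of the kidney is stopped and then restored. The labels name no genotype or drug, call the day 0 kidneys by their time only, and do not say whether those mice had a sham operation. Neither do they say that each library came from a separate animal, so the p-values below measure the spread between these libraries. In such tissue RNA, fewer cells of a type and less RNA per cell cannot be told apart.

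Alternative activation is the state that macrophages enter under the cytokines IL-4 and IL-13, whose shared receptor chain IL-4Rα activates the transcription factor STAT6. It is often set against classical activation by interferon-γ and bacterial products, although macrophages in tissue hold many states between these ends. After AKI, macrophages of the kidney are known to pass from an inflammatory state to one linked with clearing of dead cells, tubular repair and, when it persists, fibrosis. The 7 genes do different work in these cells. Chil3 encodes a secreted chitinase-like lectin, Retnla encodes a secreted protein of the resistin family, and Mrc1, Cd163, Mgl2, Clec10a and Folr2 encode surface receptors that take up sugars, hemoglobin or folate.

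The genes lie on different chromosomes, apart from Mgl2 and Clec10a, which are neighbors. In the mouse build GRCm38 (mm10) with the GENCODE M21 annotation, Chil3 (ENSMUSG00000040809.10) spans chr3:106147554-106167564 on the minus strand and Mrc1 (ENSMUSG00000026712.3) spans chr2:14229392-14332057 on the plus strand. Cd163 (ENSMUSG00000008845.9) spans chr6:124304656-124330527, Retnla (ENSMUSG00000061100.4) spans chr16:48842551-48844461, Mgl2 (ENSMUSG00000040950.13) spans chr11:70130329-70137550 and Clec10a (ENSMUSG00000000318.16) spans chr11:70156197-70170834, all on the plus strand. Folr2 (ENSMUSG00000032725.10) spans chr7:101839988-101857194 on the minus strand. The miRNA gene Mir511 lies inside Mrc1 on the same strand. Folr2 overlaps the antisense gene Gm10602 and the pseudogene Gm45319 on the other strand, and 39.9% of the reads that a count without regard to strand gave to Folr2 came from that other strand. This share was 17.7% for Cd163 and under 1% for each of the others, and the reads of the gene's own strand were used for all 7 genes.

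The 250 bases upstream of the transcription start were at hand for 6 of the 7 genes (RefSeq, GRCm38.p6), and Clec10a was not among them. For Retnla, Mrc1, Mgl2 and the Folr2 sequence from chr7:101857191 the RefSeq start lies downstream of the GENCODE start given above. Their last bases thus fall inside the gene as located there. Another Folr2 sequence, chr7:101845332-101845581, lies wholly inside the gene. Positions below are counted from the RefSeq start. The sequences are shown for the 4 genes below because motifs of factors known from macrophage activation were searched in them, on both strands, and because Retnla differed from the other 5 genes in what it held. The letters searched were TTC and GAA with 4 bases of any kind between them for STAT6, TTNNGNAA for C/EBP, GAGGAAGT for PU.1 and TGANTCA for AP-1. Matches are in capitals, and each sequence reads 5′ to 3′ toward the start on the strand of the gene.
Chil3, chr3:106167565-106167814, minus strand: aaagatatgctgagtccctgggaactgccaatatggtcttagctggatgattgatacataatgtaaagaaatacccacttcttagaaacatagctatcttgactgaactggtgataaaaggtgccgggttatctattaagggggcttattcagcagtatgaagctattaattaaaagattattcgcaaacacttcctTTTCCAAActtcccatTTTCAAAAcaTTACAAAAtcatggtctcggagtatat
Cd163, chr6:124304401-124304650, plus strand: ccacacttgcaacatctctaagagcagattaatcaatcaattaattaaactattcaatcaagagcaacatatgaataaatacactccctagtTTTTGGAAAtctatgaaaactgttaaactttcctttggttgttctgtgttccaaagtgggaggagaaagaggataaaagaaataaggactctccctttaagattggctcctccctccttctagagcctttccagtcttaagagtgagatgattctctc
Mrc1, chr2:14229164-14229413, plus strand: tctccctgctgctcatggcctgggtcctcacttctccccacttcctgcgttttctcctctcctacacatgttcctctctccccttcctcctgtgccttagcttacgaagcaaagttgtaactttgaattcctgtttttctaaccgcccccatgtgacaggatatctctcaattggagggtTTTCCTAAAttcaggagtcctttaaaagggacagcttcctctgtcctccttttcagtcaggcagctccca
Retnla, chr16:48842359-48842608, plus strand: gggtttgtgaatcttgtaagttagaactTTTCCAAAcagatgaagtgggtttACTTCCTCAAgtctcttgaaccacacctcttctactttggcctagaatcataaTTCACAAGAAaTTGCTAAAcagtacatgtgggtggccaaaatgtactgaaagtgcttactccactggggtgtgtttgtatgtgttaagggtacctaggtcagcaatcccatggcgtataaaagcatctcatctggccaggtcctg
The Retnla sequence held the only STAT6 match among the 6 genes, which begins at position -145 counted from the start, and the only PU.1 match, at position -198, which overlaps a C/EBP match. Among 32851 RefSeq promoter sequences searched over the same length, 5.85% held the STAT6 letters and 2.44% the PU.1 letters. C/EBP letters occurred 3 times upstream of Chil3 and of Retnla, as overlapping pairs upstream of Mrc1 and Cd163, and once upstream of Mgl2, beside 36.8% of all promoters with at least 1 match. An AP-1 match was found at position -74 from 1 of the 2 listed starts of Folr2, in the sequence that lies wholly inside the gene. Such letters occurred in 6.75% of promoters. These matches describe the letters of the sequence, and binding of the factors was not measured here.

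Depth sets a limit on what can be said of these genes, because several of them had few reads. Libraries held 12485579 to 20476979 reads on genes, and levels below are in CPM, a gene's reads relative to the reads of its library after scaling by the trimmed mean of M values (TMM). Over all 14 libraries Chil3 had 1775 reads, Mrc1 1462, Mgl2 440, Cd163 251, Folr2 176, Clec10a 146 and Retnla 6. Of these genes 6 passed the filter on low counts and were among the 14300 genes tested, and Retnla did not pass. Several passed through the days or libraries in which they were high, so counts of members that changed are descriptions. At days 1 and 3, some deposited files carry a 3-digit library number (replicates 1 and 2 of day 1 and replicates 1, 2 and 3 of day 3) and the others a 1-digit number, as do all files of day 0. What the number format stands for is not given, and it was treated as a possible batch.

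Per kilobase of exon, which allows genes to be compared, the order of the genes changed between the days. At day 0 the highest were Mgl2 (1.01 ± 0.296 CPM per kb, SD, n = 4), Mrc1 (0.421 ± 0.127), Folr2 (0.319 ± 0.133) and Clec10a (0.109 ± 0.0308), and of these neighbors in the order Mrc1 and Folr2 overlapped while the others did not. At day 3 the highest were Chil3 (10.9 ± 8.13, n = 5), Mrc1 (1.66 ± 1.35), Folr2 (0.764 ± 0.552) and Mgl2 (0.671 ± 0.603), and each of these overlapped its neighbor in the order. At day 0 the lectin receptors and the folate receptor thus had higher means than Chil3, and at day 3 Chil3 stood first by its mean.

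**Figure D1:**
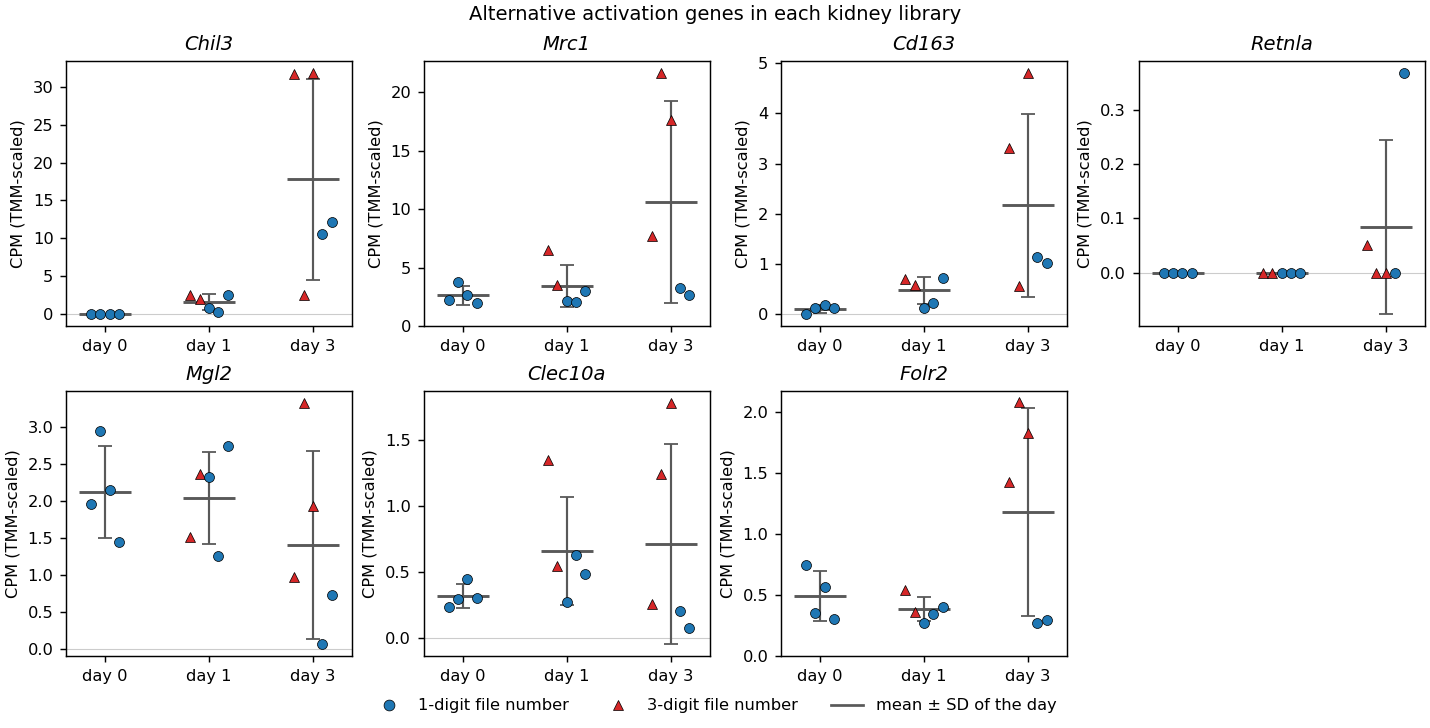
TMM-scaled CPM of the 7 genes (vertical axes, linear, a separate scale for each gene) in each library of day 0 (n = 4), day 1 (n = 5) and day 3 (n = 5), with bars for the mean ± SD of the day and red triangles for libraries with a 3-digit file number. Chil3 was at or near 0 at day 0 and reached 31.8 CPM at day 3, whereas Mgl2 spread from 0.0673 to 3.32 CPM at day 3 mostly below its earlier levels.

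At day 1 the main test called only the secreted lectin Chil3, also known as Ym1, which also had the largest fitted rise. It had no read in 3 libraries of day 0 and 1 read in replicate 2 (0.0589 CPM). At day 1 its level was 2.53, 1.95, 0.886, 0.286 and 2.57 CPM in replicates 1 to 5. By day 3 the level was 31.7, 2.59, 31.8, 10.6 and 12.1 CPM. Every library of day 1 lay above every library of day 0, and the lowest library of day 3, replicate 2, lay just above the highest of day 1. Fitted log2 fold changes of Chil3 were 6.21 ± 1.25 for day 1 (SE, adjusted p = 0.00169, edgeR quasi-likelihood test with Benjamini-Hochberg adjustment) and 9.64 ± 1.17 for day 3 (adjusted p = 8.73e-05), and between these days the value was 3.43 ± 0.65 (adjusted p = 0.00594). Because day 0 had a single read, the size of the first 2 changes depends on the prior count of the fit. As a ratio of reads per library size, day 1 stood at 110 times day 0 with an exact 95% interval of 19.4 to 4364, and day 3 at 1267 times with an interval of 227 to 50070, intervals that cover counting error only. Chil3 has a near-identical relative, Chil4, which fell at day 3, when Chil3 was highest, but not at day 1. Chil4 was at 0.996 ± 0.811 CPM at day 0, 1.33 ± 0.732 CPM at day 1 and 0.198 ± 0.134 CPM at day 3, with a log2 fold change of 0.39 ± 0.69 from day 0 to day 1 (adjusted p = 0.664), -2.29 ± 0.77 from day 0 to day 3 (adjusted p = 0.0338) and -2.69 ± 0.74 from day 1 to day 3 (adjusted p = 0.0266). The count takes only reads that map to 1 place, so reads that both genes could have given are missing from both.

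Chil3 is known to be made by neutrophils as well as by macrophages, and neutrophil genes rose with it against day 0. Of 10 tested genes of the neutrophil list 9 rose at day 1 and 9 at day 3, beside 42.1% and 33.3% of all genes called, with medians of the fitted log2 fold changes of 6.595 and 6.995. From day 1 to day 3, when Chil3 rose further, 0 of the 10 were called by edgeR or by DESeq2, 1 had an unadjusted p under 0.05, and the median was 0.77, beside 15.9% of all genes called by edgeR. The summed level of the list was 1.88 to 2.59 CPM at day 0, 56.9 to 262 CPM at day 1 and 22.8 to 549 CPM at day 3. At day 0 the granule gene Camp was at 0 in every library and Retnlg and Ngp had reads in 1 library each, and Ly6g was not among the genes listed in the files. Within day 3 the lowest neutrophil sum and the lowest Chil3 level fell in the same library, replicate 2, but the highest neutrophil sum fell in replicate 5, where Chil3 was at 12.1 CPM. The part of neutrophils in the change of Chil3 was not tested.

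The scavenger receptor for the complex of hemoglobin and haptoglobin, Cd163, changed in the same direction as Chil3 at a lower level. It was at 0, 0.118, 0.190 and 0.121 CPM in replicates 1 to 4 of day 0. At day 1 it was at 0.701, 0.591, 0.136, 0.229 and 0.724 CPM. By day 3 Cd163 was at 3.31, 0.563, 4.80, 1.14 and 1.03 CPM. The libraries of day 3 all lay above those of day 0, while replicate 2 of day 3 lay within the range of day 1. Against day 0 the change at day 3 was 4.28 ± 0.83 on the log2 scale (adjusted p = 0.00183), and reads per library size were 22.5 times those of day 0 (exact 95% interval 10.7 to 56.6). The change from day 1 to day 3 was 2.18 ± 0.64 (adjusted p = 0.0335), and that from day 0 to day 1 was 2.10 ± 0.86 (adjusted p = 0.0613). The later step lost its call without replicate 3, 4 or 5 of day 1 or replicate 1 or 3 of day 3, with adjusted p from 0.0534 to 0.0992. It was also lost in libraries of 1 number format alone (adjusted p = 0.0961 within 1-digit and 0.106 within 3-digit libraries). A fit of these 2 days without day 0 (adjusted p = 0.0663) and a fit with a block for the replicate number lost it too. Over all genes the share called was 8.9% to 10.3% without those single libraries and 6.02% in the fit without day 0. It was 36% within 1-digit libraries, 16% within 3-digit libraries and 14.3% with the block.

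The mannose receptor Mrc1 (CD206), an endocytic lectin that resident macrophages and some endothelial cells are known to carry, was already measurable in every library of day 0. There it was at 2.24, 3.83, 2.65 and 2.00 CPM in replicates 1 to 4. At day 1 it was at 6.52, 3.50, 2.18, 2.12 and 3.06 CPM. By day 3 Mrc1 was at 7.74, 21.6, 17.6, 3.30 and 2.72 CPM. Replicates 1 to 3 of day 3 lay above all libraries of days 0 and 1, and replicates 4 and 5 lay within the range of day 0. The log2 fold change from day 0 to day 3 was 1.98 ± 0.59 (adjusted p = 0.0188), that from day 1 to day 3 was 1.61 ± 0.53 (adjusted p = 0.0530), and that from day 0 to day 1 was 0.38 ± 0.57 (adjusted p = 0.612). The rise at day 3 was found in the libraries with a 3-digit number (log2 fold change 2.54, adjusted p = 0.00125) and was 0.19 with an adjusted p of 0.645 in those with a 1-digit number. All files of day 0 have 1-digit numbers, so in the first of these values format and day change together. With format as a term of the fit the change was 0.62 with an adjusted p of 0.261, and Mrc1 was not called. That fit called 48.2% of all genes, and the fit of 1-digit libraries 56.3%. Without replicate 1, 3 or 4 of day 0 the adjusted p of Mrc1 at day 3 was 0.0552, 0.0501 and 0.0534, in fits that called 23% to 25.9% of all genes. The change from day 1 to day 3 had an adjusted p of 0.0303 without replicate 1 of day 1, 0.0356 without replicate 4 of day 3 and 0.0176 without replicate 5 of day 3.

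Folr2, the folate receptor β of resident and repair-associated macrophages, had a like distribution at lower depth. At day 0 it was at 0.748, 0.353, 0.569 and 0.302 CPM in replicates 1 to 4. At day 1 it was at 0.539, 0.363, 0.273, 0.343 and 0.402 CPM. By day 3 Folr2 was at 1.43, 2.08, 1.83, 0.269 and 0.294 CPM. Again the first 3 libraries of day 3 lay above all earlier ones, and replicates 4 and 5 had 4 reads each. The log2 fold change was 1.27 ± 0.57 from day 0 to day 3 (adjusted p = 0.0972) and 1.62 ± 0.54 from day 1 to day 3 (adjusted p = 0.0546). Both passed the threshold when replicate 4 or replicate 5 of day 3 was left out, at adjusted p of 0.0396 and 0.0407 against day 0 and of 0.0276 and 0.0182 against day 1. In 3-digit libraries alone Folr2 was 1.84 higher at day 3 than at day 0 on the log2 scale (adjusted p = 0.00564), a comparison in which the format and the day change together. With format as a term of the fit the change was 0.04 with an adjusted p of 0.967, and in 1-digit libraries alone Folr2 did not pass the filter on low counts.

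The galactose-type lectins Mgl2 (CD301b) and Clec10a (CD301a), receptors for terminal galactose and N-acetylgalactosamine that macrophages and dendritic cells are known to carry, passed the test on none of the days. Mgl2 was at 1.96, 2.94, 2.15 and 1.45 CPM in replicates 1 to 4 of day 0. At day 1 it was at 1.51, 2.36, 2.32, 1.26 and 2.74 CPM. At day 3 it was at 0.967, 3.32, 1.93, 0.0673 and 0.735 CPM, the last 2 of these from 1 and 10 reads. Day 1 covered nearly the range of day 0, and at day 3 replicates 4, 5 and 1 lay below every earlier library. The log2 fold change from day 0 to day 3 was -0.58 ± 0.60 (adjusted p = 0.470), and within 1-digit libraries it was -2.40 (adjusted p = 0.0113), as was that from day 1 to day 3 (adjusted p = 0.0218). Clec10a was at 0.230, 0.294, 0.442 and 0.302 CPM at day 0. It was at 1.35, 0.545, 0.273, 0.629 and 0.483 CPM at day 1. At day 3 it was at 0.255, 1.24, 1.78, 0.202 and 0.0735 CPM, so that the libraries of day 3 lay on both sides of those of day 0. Its log2 fold changes were 1.05 ± 0.75 at day 1 (adjusted p = 0.270) and 1.18 ± 0.75 at day 3 (adjusted p = 0.233).

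Retnla (Fizz1, RELMα), a secreted protein that is among the most strongly induced products of IL-4-treated mouse macrophages, was almost undetected. It had 0 reads in all 9 libraries of days 0 and 1, a count that allows up to 3 reads in each, and at day 3 it had 1 read in replicate 1 (0.0509 CPM), 5 reads in replicate 5 (0.367 CPM) and none in the other 3. No change was tested for it. Its neutrophil-associated relative Retnlg was at 0.0158 ± 0.0316, 10.99 ± 8.60 and 20.5 ± 24.9 CPM at days 0, 1 and 3 and rose at both later times (adjusted p = 0.00164 and 0.0012), from a single read at day 0.

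Counted over the members, 1 of the 7 genes (Chil3) passed the test at day 1 against day 0, beside 42.1% of all 14300 genes. At day 3 against day 0 Chil3, Cd163 and Mrc1, 3 of the 7 genes, passed, beside 33.3% of all genes. At day 3 against day 1 Chil3 and Cd163, 2 of the 7, passed, beside 15.9%. The median log2 fold change over all genes tested was 0.007, 0.054 and 0.021 in these comparisons. The comparisons with day 0 share its 4 libraries. Chil3 and Cd163 were called at day 3 against day 0 in all 10 alternative settings that could test them and without any 1 of the 14 libraries. At day 1 Cd163 was also called by DESeq2, in the unstranded counts and without replicate 3 of day 1 or replicates 2 or 3 of day 3 (adjusted p from 0.0430 to 0.0480). From day 1 to day 3, DESeq2 called Mrc1 (adjusted p = 0.0148) and Folr2 (adjusted p = 0.0380) as well, and so did edgeR with total counts in place of TMM and in the 3-digit libraries alone, where Cd163 was lost. The unstranded counts added Folr2 (adjusted p = 0.0202).

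**Figure D2:**
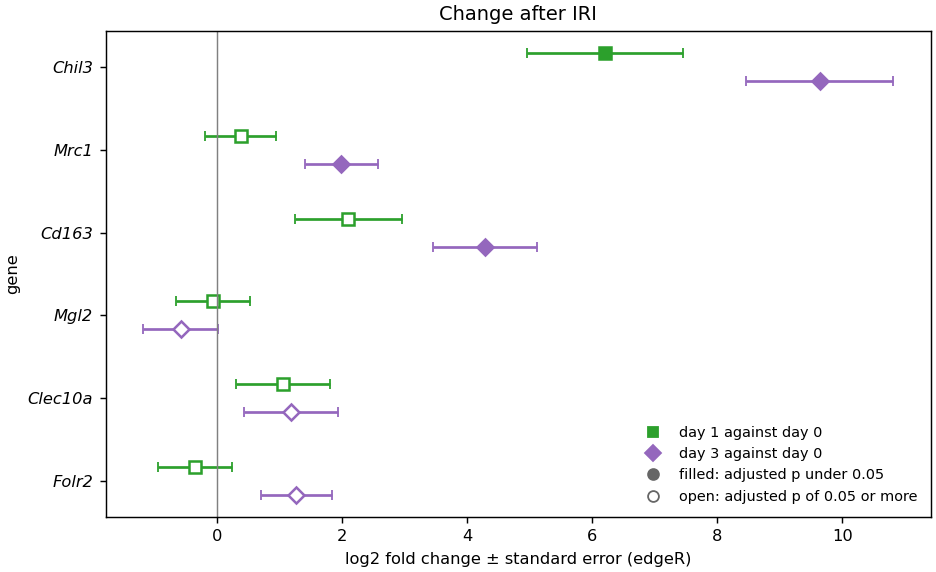
Log2 fold change ± SE (horizontal axis, edgeR) of the 6 tested genes (vertical axis) at day 1 (green squares) and day 3 (purple diamonds) against day 0, with filled symbols for an adjusted p under 0.05. Chil3 is filled on both days, Cd163 and Mrc1 at day 3 only, and Mgl2 lies at or below 0 on both days.

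Libraries of the same day were then compared by number format, because the members did not all vary alike within day 3. At day 3 this test was passed by the receptors Mrc1, Folr2, Mgl2 and Clec10a, 4 of the 7 genes beside 18.5% of all genes tested, and each of them was higher where the number has 3 digits. Mrc1 was at 15.7 ± 7.15 CPM (n = 3) against 3.01 ± 0.408 CPM (n = 2), a log2 difference of 2.38 ± 0.45 (adjusted p = 0.0072). Folr2 was at 1.78 ± 0.332 against 0.281 ± 0.0176 CPM, a difference of 2.63 ± 0.49 (adjusted p = 0.0067), which in the unstranded counts, with the reads of the other strand, was 1.37 (adjusted p = 0.0433). Mgl2 and Clec10a differed by 2.38 ± 0.74 (adjusted p = 0.0419) and 2.90 ± 0.87 (adjusted p = 0.0374). Folr2 and Clec10a did not pass the filter on low counts when any 1 of the 3-digit libraries of day 3 was left out, nor did Clec10a without replicate 1, 2 or 4 of day 1, so the count of 4 is a description. Clec10a was at 0.255 CPM (5 reads) in the lowest of these libraries and at 0.202 CPM (3 reads) in the higher 1-digit library. Chil3 and Cd163 differed by 0.96 ± 0.78 and 1.41 ± 0.76, with adjusted p of 0.392 and 0.197, and each had its lowest level of day 3 in a 3-digit library, replicate 2.

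These 4 calls rest on 5 libraries, and which of them held changed with the library left out. Without replicate 5 of day 3 none of the 4 was called (edgeR, adjusted p of 0.0859 for Mrc1, 0.0737 for Folr2, 0.0657 for Mgl2 and 0.229 for Clec10a), and the lone 1-digit library was then assumed to vary like the other groups. That fit called 0.638% of all genes, against 18.5% with all libraries. Without replicate 4, Mgl2 (0.179) and Clec10a (0.0702) were lost. Without replicate 2 or 3, Mgl2 was lost (0.119 and 0.0791), in fits that called 8.26% and 8.06% of all genes. Without replicate 1, Mrc1 and Mgl2 were called, beside 33.5% of all genes. In the 10 fits without 1 library the log2 difference lay between 2.07 and 2.70 for Mrc1. That of Mgl2 was 1.48 without replicate 4 of day 3 and 4.78 without replicate 5. For Folr2 it lay between 2.57 and 2.67, but only 7 fits could test it. None of those left out a 3-digit library of day 3, so this narrow range cannot be compared with the others. In addition, without replicate 5 of day 1 Mgl2 had an adjusted p of 0.0519.

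**Figure D3:**
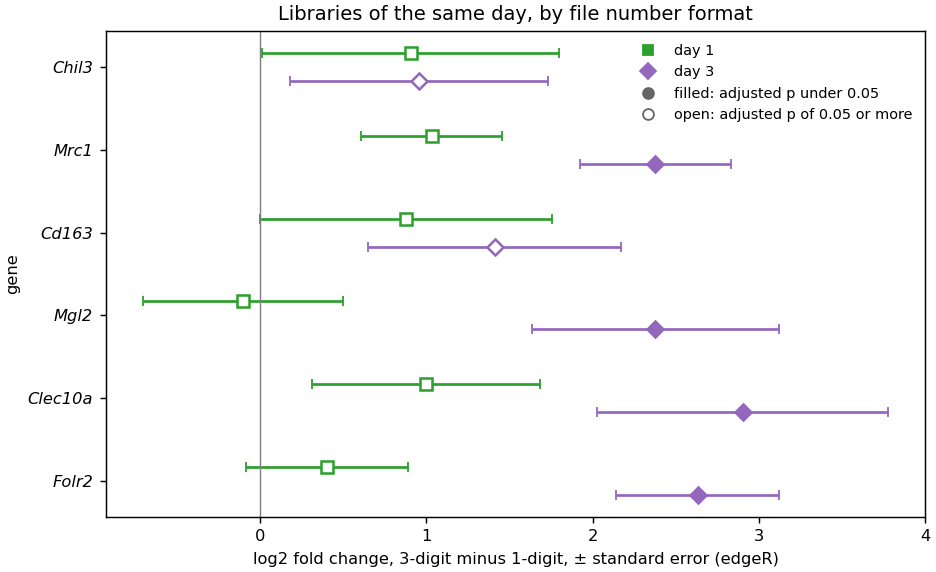
Log2 fold change ± SE (horizontal axis, edgeR) between libraries with 3-digit and 1-digit file numbers for the 6 tested genes (vertical axis), at day 1 (green squares, 2 against 3 libraries) and day 3 (purple diamonds, 3 against 2 libraries), with filled symbols for an adjusted p under 0.05. Mrc1, Folr2, Mgl2 and Clec10a are filled at day 3, and no symbol is filled at day 1.

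At day 1 none of the 6 tested genes was called between the formats by edgeR, beside 35% of all genes, and 1 gene, Mrc1, had an unadjusted p under 0.05 (0.0296, log2 difference 1.03 ± 0.42, adjusted p = 0.0741). DESeq2 called 0 of them too (adjusted p of 0.0681 for Mrc1), and without replicate 1 of day 3 the edgeR value of Mrc1 was 0.0267. The difference between the format effects of day 3 and day 1 was called for 1 of the 7 genes, Folr2 (2.23 ± 0.70 on the log2 scale, adjusted p = 0.0440), beside 17.6% of all genes, and for Mrc1 and Mgl2 it was 1.34 ± 0.61 (adjusted p = 0.145) and 2.48 ± 0.96 (adjusted p = 0.0898). The call of Folr2 was lost without any 1 of the 5 libraries of day 1 or without replicate 4 or 5 of day 3, at adjusted p from 0.0555 to 0.133 in fits that called 8.85% to 16.5% of all genes, and it could not be tested without replicate 1, 2 or 3 of day 3. DESeq2 gave 0.0764 for Folr2 and 0.0344 for Mgl2. Without replicate 1 of day 3 Mrc1 (adjusted p = 0.0310) and Mgl2 (0.0413) were called instead, and without replicate 5 of day 3 Mgl2 was (0.0262).

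Within the days the genes thus fell into patterns that the levels of single libraries show. Replicate 2 of day 3 had the lowest Chil3 and Cd163 of that day and the highest Mrc1, Mgl2 and Folr2. Replicates 4 and 5 had intermediate Chil3 and the lowest Mrc1, Mgl2, Clec10a and Folr2. Across the 14 libraries, with the mean of each day removed, log2 CPM of Chil3 correlated with Cd163 (r = 0.836), and Mrc1 with Clec10a (0.894), Folr2 (0.847) and Mgl2 (0.720). Between Chil3 and Mrc1 r was 0.103. These values describe 14 libraries that share day, format and ranges of depth.

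**Figure D4:**
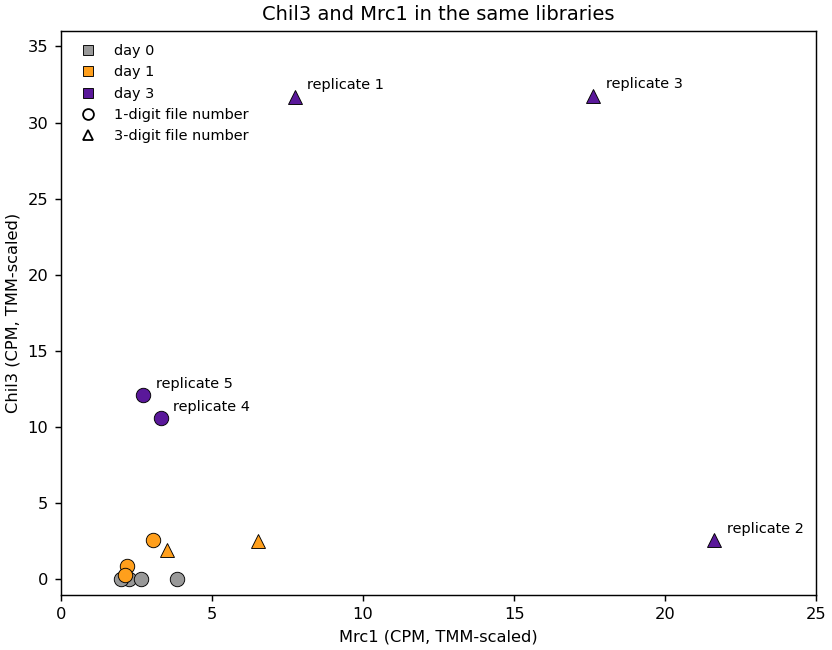
TMM-scaled CPM of Chil3 (vertical axis) against Mrc1 (horizontal axis) in the 14 libraries, colored by day and shaped by number format, with the replicates of day 3 named. Replicate 2 of day 3 had 21.6 CPM of Mrc1 with 2.59 CPM of Chil3, replicate 1 had 7.74 with 31.7, and the libraries of day 0 lie along the bottom.

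Replicate 2 of day 3 also stood apart in other cells' genes. Its proximal tubule genes summed to 19200 CPM beside 9326 to 10980 CPM in the other libraries of day 3. Its neutrophil genes summed to 22.8 beside 85.6 to 549 CPM, and its genes of the dendritic cell list to 125 beside 32.6 to 46.3 CPM. Most of this last sum was H2-Ab1 (68.9 CPM) and Cd74 (47.3 CPM), so it is not a measure of dendritic cells alone. Of 6 tested genes of the dendritic cell list Zbtb46 rose and Cd74 fell at day 3, beside 33.3% of all genes called. Without this library Chil3, Cd163 and Mrc1 were still called at day 3 against day 0, with log2 fold changes of 9.92, 4.53 and 1.56. The part of this library's tissue makeup in the levels of the members was not tested. At day 0, replicate 2 had 12.4 CPM of Adgre1, the gene of the macrophage marker F4/80, beside 1.88 to 2.15 CPM in the other 3 libraries, and its Mrc1 and Mgl2 were the highest of that day, whereas its Folr2 (0.353 CPM) and Clec10a (0.294 CPM) were the second lowest.

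Genes of macrophages in general were set beside the members. Of 14 pan-macrophage genes 5 rose and 2 fell at day 1, and 8 rose and 1 fell at day 3, beside 42.1% and 33.3% of all genes called, with median log2 fold changes of 0.21 and 1.54, and their summed level was 192 to 282 CPM at day 0, 192 to 389 at day 1 and 295 to 610 at day 3. The 4 most abundant did not move alike. Cd14, a receptor for bacterial lipid that injured tubules can also express, rose by 4.81 ± 0.50 at day 1 (adjusted p = 2.05e-05) and by 3.76 ± 0.47 at day 3 (adjusted p = 0.000117). Lyz2, encoding lysozyme, was 2.00 ± 0.72 higher at day 3 (adjusted p = 0.0438). Csf1r, the receptor of the main macrophage growth factor, fell by 1.65 ± 0.24 at day 1 (adjusted p = 0.000185) and by 1.86 ± 0.24 at day 3 (adjusted p = 0.000123). Mertk, a receptor for dead cells, fell by 0.59 ± 0.20 at day 1 (adjusted p = 0.0272) and was 0.21 ± 0.20 higher at day 3 with an adjusted p of 0.442. Between formats at day 3, Adgre1, Csf1r, Lyz2, Fcgr1 and Mpeg1 were higher and Cd68 lower in the 3-digit libraries, so 5 of 14 pan-macrophage genes moved in the direction of Mrc1, Folr2, Mgl2 and Clec10a, beside 18.5% of all genes called, with sums of 418 to 610 against 295 to 355 CPM. Genes of other cells differed by format as well. At day 3, 5 of 10 proximal tubule genes were higher in the 3-digit libraries (median 1.16), and of 10 fibroblast and pericyte genes Cspg4 was higher and Pdgfrb, Pdgfra and Acta2 were lower. The difference between the format effects of the days was called for 8 of 10 proximal tubule genes, all with the sign it had for Folr2 (median 2.90), beside 17.6% of all genes. The part of macrophage number or of these other cells in the format difference of the members was not tested.

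Genes that mark where kidney macrophages come from were read next. Of 10 genes of recruited monocytes 5 rose at day 1 and 8 at day 3, beside 42.1% and 33.3% of all genes called, with medians of 1.31 and 2.07. Their summed level was 77.8 to 157 CPM at day 0, 175 to 282 at day 1 and 281 to 346 at day 3. The 2 genes of this list not called at day 3 were Ly6c2 and Ccr2, the defining surface genes of inflammatory monocytes, here named after their values were seen. Ly6c2 changed by 0.32 ± 0.34 at day 1 (adjusted p = 0.465) and by -0.02 ± 0.34 at day 3 (adjusted p = 0.977), and Ccr2 by -0.36 ± 0.63 (adjusted p = 0.668) and 1.395 ± 0.64 (adjusted p = 0.103). Between formats at day 3 Ccr2 differed by 2.99 ± 0.54, with the 3-digit side higher (adjusted p = 0.00568). Among the most abundant, which other cells also express, the matrix gene Fn1 was 1.52 ± 0.32 higher at day 3 (adjusted p = 0.0029), and S100a4, a calcium-binding protein of motile cells, rose at both times (1.77 ± 0.27 and 3.09 ± 0.28, adjusted p = 0.000285 and 9.12e-06). Of 11 tested genes of resident macrophages Lyve1 rose and Maf fell at day 1, and Lyve1 rose and Sepp1 and Gas6 fell at day 3, the last 2 of which tubules also express, with medians of 0.12 and 0.63. The summed level of this list was 4141 to 4713 CPM at day 0, 3695 to 5523 CPM at day 1 and 1831 to 2874 CPM at day 3. Sepp1 made up most of it at days 0 and 1, but not in every library of day 3. The 2 and 3 called genes of these 11 compare with 42.1% and 33.3% of all genes. Timd4 and Vsig4, markers of resident macrophages in many tissues, had at most 0.162 and 0.102 CPM in any library. Between formats at day 3, C1qb, Cx3cr1, Apoe and Gas6, 4 of the 11 tested genes of this list, were higher in the 3-digit libraries, beside 18.5% of all genes called.

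Further genes of alternative activation were set beside the members as well. Of 10 tested genes of that list (16 in all) 4 rose at day 1, beside 42.1% of all genes called, with a median of 1.42, and at day 3 8 rose and Chil4 fell, beside 33.3%, with a median of 2.68. The summed level of the list, most of it Tgm2, was 275 to 314 CPM at day 0, 513 to 890 CPM at day 1 and 443 to 648 CPM at day 3, with a lower mean at day 3 (511 CPM) than at day 1 (689 CPM). The scavenger receptor Msr1 was at 0.581 ± 0.2995, 4.04 ± 2.64 and 18.2 ± 12.0 CPM at days 0, 1 and 3 and rose by 2.79 ± 0.64 (adjusted p = 0.00389) and 4.95 ± 0.68 (adjusted p = 0.000201). Il1rn, the antagonist of the IL-1 receptor, rose by 4.84 ± 0.76 and 5.20 ± 0.76 (adjusted p = 0.000325 and 0.0003). Tgm2, a cross-linking enzyme with broad expression, and Socs2, an inhibitor of cytokine receptors, rose by 1.205 and 1.70 at day 1 and by 0.67 and 1.48 at day 3, with adjusted p of 0.000519, 0.000856, 0.0191 and 0.00261. Gpnmb and Trem2, genes of lipid-laden macrophages named after their values were seen, were at 5.30 ± 4.01 and 3.16 ± 2.29 CPM at day 3 beside 0.196 ± 0.272 and 0.280 ± 0.154 CPM at day 0. In replicate 2 of day 3, Gpnmb was at 10.6 CPM and Trem2 at 4.79 CPM, among the highest levels of that day, whereas Chil3 was at its lowest.

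The cytokines that define alternative activation were not detected at this depth in a way that allows comparison. Il4 had no read in any of the 14 libraries, and Il13 had a single read, in replicate 3 of day 1. Of 18 tested genes of IL-4, IL-13 and IL-10 signalling 8 rose and Pparg fell at day 1, and 7 rose and Pparg fell at day 3, beside 42.1% and 33.3% of all genes called, with medians of 0.79 and 0.53. The receptor chain Il4ra, named after its values were seen, was at 19.7 ± 3.19, 64.4 ± 21.6 and 40.7 ± 17.7 CPM at days 0, 1 and 3 and rose by 1.71 ± 0.31 (adjusted p = 0.000904) and 1.05 ± 0.31 (adjusted p = 0.0176). It was lower in the 3-digit libraries, by 0.95 ± 0.26 on the log2 scale at day 1 (adjusted p = 0.0134) and by 0.76 ± 0.25 at day 3 (adjusted p = 0.0497), opposite in sign to Mrc1, Folr2, Mgl2 and Clec10a at day 3. Its partner Il13ra1 rose by 0.79 ± 0.23 at day 1 (adjusted p = 0.0135) and was 0.10 ± 0.23 higher at day 3 with an adjusted p of 0.771. Stat6 was at 87.3 ± 5.23, 103 ± 16.8 and 95.3 ± 12.1 CPM, with adjusted p of 0.164 and 0.487. Stat3, through which IL-10 and IL-6 act, rose by 2.09 ± 0.28 and 1.74 ± 0.28 (adjusted p = 0.000121 and 0.000552). Jak1, a kinase of these receptors, rose by 0.51 ± 0.14 at day 1 (adjusted p = 0.0102) and was 0.28 ± 0.14 higher at day 3 (adjusted p = 0.134). Between day 1 and day 3 Il13ra1 fell by 0.70 ± 0.21 (adjusted p = 0.0401).

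Genes of classical activation, the opposite pole, rose at day 1 in 6 of 9 tested cases and at day 3 in 4, beside 42.1% and 33.3% of all genes called, with medians of 1.94 and 1.32. The cytokine Il1b rose by 2.89 ± 0.65 and 3.05 ± 0.66 (adjusted p = 0.00347 and 0.00345). Ptgs2, the inducible enzyme of prostaglandin synthesis, rose by 3.29 ± 0.60 at day 1 (adjusted p = 0.000954) and fell by 1.97 ± 0.51 from day 1 to day 3 (adjusted p = 0.0210). The interferon-induced chemokine Cxcl10 rose by 2.34 ± 0.66 at day 1 (adjusted p = 0.0117) and was 0.79 ± 0.64 higher at day 3 (adjusted p = 0.353). Irf5, a transcription factor of inflammatory macrophages, had adjusted p of 0.292 and 0.110 against day 0. Nos2, the inducible nitric oxide synthase, named after its values were seen, stood at 0.832 ± 0.376, 0.848 ± 0.471 and 0.893 ± 0.383 CPM. From day 1 to day 3 Ptgs2 was the 1 gene of this list that passed the test, beside 15.9% of all genes.

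Of 10 tested genes of hemoglobin scavenging and heme, the pathway of Cd163, 4 rose at each time, a share near the 42.1% and 33.3% of all genes called, with medians of 0.88 and 0.96. Heme oxygenase Hmox1, which degrades the heme delivered through Cd163 and which injured tubules also express, rose from 39.0 ± 8.72 to 703 ± 238 CPM at day 1 and stood at 147 ± 102 CPM at day 3, with log2 fold changes of 4.17 ± 0.45 and 1.91 ± 0.40 (adjusted p = 2.48e-05 and 0.00311), and fell by 2.26 ± 0.38 from day 1 to day 3 (adjusted p = 0.00306) while Cd163 rose. The ferritin chain Ftl1 rose by 0.86 ± 0.24 at day 1 (adjusted p = 0.0107), and Fth1 and the stress regulator Nfe2l2 had adjusted p of 0.0866 and 0.448.

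Of the other relatives of the members, the endocytic receptor Mrc2, which fibroblasts express and which takes up collagen, was at 14.8 ± 1.76, 13.5 ± 7.02 and 36.7 ± 13.2 CPM and rose by 1.31 ± 0.33 at day 3 (adjusted p = 0.00905), after a value of -0.13 ± 0.33 at day 1. The chitinase-like Chil1 and the chitinase Chit1 rose at both times, Chil1 by 3.16 ± 0.79 and 3.87 ± 0.79 (adjusted p = 0.00617 and 0.00249), and Chit1, with 0 reads at day 0, at adjusted p of 0.0255 and 0.0139. Folr1, the folate receptor of proximal tubules, was at 382 ± 5.603, 414 ± 204 and 254 ± 95.4 CPM and had an adjusted p of 0.201 at day 3. In all, 3 of 9 tested relatives rose at day 1, and 4 rose and Chil4 fell at day 3, beside 42.1% and 33.3% of all genes called.

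Genes of other cells were read for the same libraries. Of 10 fibroblast and pericyte genes 3 rose at day 1 and 7 at day 3, with medians of 0.98 and 2.47, and of 10 proximal tubule genes 3 fell at day 1 and 5 at day 3, with medians of -0.64 and -1.41 and 42.1% and 33.3% of all genes called on these days. Of 7 tested lymphatic and sinusoidal endothelial genes, cells that can carry Mrc1, Lyve1, Pdpn and Mmrn1 rose and Prox1 and Reln fell at day 1, and Lyve1 and Pdpn rose and Prox1 and Reln fell at day 3. Only 2 genes of T, B and NK cells and 1 of eosinophils, basophils and mast cells passed the filter on low counts. Of these, Cd8a and Kit fell at both times. Epx and Mcpt4, markers of eosinophils and mast cells, were at 0 in every library, so the level of Kit cannot be read as one of mast cells.

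The genes whose log2 CPM was most like that of each member over all 14 libraries were also listed, as a description. For Chil3 they were Dpep2 (r = 0.967), Ccl6 (0.966) and Nbeal2 (0.966). Cd163 was closest to Chil3 itself (0.940), then to Clec5a (0.938) and Zdhhc15 (0.927). Mrc1 was closest to Ntm (0.923), Espl1 (0.919) and Fcgr1 (0.910), the last being the high-affinity Fc receptor of macrophages. Folr2 was closest to Ccnb2 (0.952), Kif20a (0.939) and Pbk (0.932), genes of dividing cells, Mgl2 to Apex2 (0.942), Tmem29 (0.911) and Cnpy2 (0.890), and Clec10a to Cklf (0.888), Faap24 (0.825) and Rgs10 (0.796). With the means of the days removed, r was 0.967 between Folr2 and Ccnb2 and 0.877 between Chil3 and Ccl6. These were the highest of 14300 values for each gene, over libraries that share day, depth and format.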

How the data were processed

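Total RNA of mouse kidneys (TRIzol) was sequenced from Illumina TruSeq libraries, 4 at day 0 and 5 each at days 1 and 3. The authors deposited STAR's unnormalized counts of reads with 1 mapping place. The submitters' processing notes name Trimmomatic, STAR and mm10, with versions not given in the sources used here. The reverse-strand column, with 98.5% to 98.7% of stranded reads, was used. STAR's 4 rows without a gene took 29.0% to 38.3% and were dropped. No 2 replicates agreed within sampling noise (lowest chi-square 5.69 per degree of freedom).

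R 4.3.3 and edgeR 4.0.16 (with limma 3.58.1) were used. Genes passing filterByExpr by day were scaled by TMM and tested by the quasi-likelihood test over all 14 libraries, with 1 term per day, or 1 per day and number format. Adjustment was by Benjamini-Hochberg over 14300 genes, with 0.05 as the threshold. SEs were derived from F, and a prior count of 2 entered log2 CPM. The fit was tested on simulated data. The settings varied were the strand column (unstranded), the scaling (RLE, total counts), the filter (none, or at least 10 counts in each library), the tool (DESeq2 1.42.0), the libraries (only the days compared, 1 format, 1 left out) and the terms (format, or a block for the replicate number).

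The members and 17 gene lists were chosen with earlier results of these data known. Of the members 1 further gene, with the list entries tied to it, and 1 gene of another list are not reported here. The naming rule took all members, at most the 4 most abundant genes of a list, relatives of the members and the 3 genes most like each member, and other genes were named after their values were seen. Of the lists without bearing on a member, 1 of 5 tested adipocyte genes (Pck1) rose from day 1 to day 3, beside 15.9% of all genes called. Of 8 collecting duct and urothelium genes 1 (Krt20) rose at day 1 and at day 3 and 3 fell at day 3, beside 42.1% and 33.3% of all genes called.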

Additional observations from a re-analysis of the deposited data

Results flagged for a closer look

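In 3 results a library or a difference met a preset limit. The single read of Chil3 at day 0, in replicate 2 (0.0589 CPM), stood beside 3 libraries without a read. With the others at 0 any single read stands out in this way, and at this depth 1 read is within what a count of 0 allows. The folds of Chil3 against day 0 rest on it. Retnla in replicate 5 of day 3 (0.367 CPM, 5 reads) lay apart from 0 to 0.0509 CPM in the other libraries of that day. Over the 24 groups looked at in this way, which include the summed pan-macrophage genes, chance would mark about 1.2 if values were normally spread. That does not hold for groups of mostly 0 reads, such as these of Chil3 and Retnla. The difference of Folr2 between number formats was 2.23 larger at day 3 than at day 1 on the log2 scale by the test of that difference (edgeR, adjusted p = 0.0440), from 4 to 37 reads in the libraries of day 3 and 4 to 10 in those of day 1.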

How the results depend on the processing

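The alternatives were run for the members, and none of their directions that passed the test was reversed. Directions of the list genes were not compared across them. At day 1 against day 0 the number of members called was 1, and it was 2 in the unstranded column, 0 with at least 10 counts in every library (which left Mrc1 as the only member tested), 2 by DESeq2, and 1 to 2 with 1 library left out (32.9% to 45.9% of all genes called in those fits). At day 3 against day 0 it was 3, 1 with at least 10 counts in every library, 2 with format as a term (Mrc1 lost), 3 and 4 with only 1-digit or 3-digit libraries of days 1 and 3, and 2 to 4 with 1 library left out (23% to 39.7% of all genes). At day 3 against day 1 it was 2, and 4 with total counts, 1 with at least 10 counts, 4 by DESeq2, 3 in the unstranded column, 2 and 3 with only 1-digit or 3-digit libraries, 1 with only the 2 days compared (6.02% of all genes) and 1 with the replicate block, and 1 to 4 with 1 library left out (8.9% to 23.5%). Between formats it was 0 at day 1, and 1 with total counts and 0 to 1 with 1 library left out (14% to 39.4%), and 4 at day 3, with 1 for at least 10 counts and 0 to 4 with 1 library left out (0.638% to 33.5%). The difference of the format effects was called for 1 member, and for 0 in the unstranded column, with total counts, without the filter and with at least 10 counts, and for 0 to 2 with 1 library left out (8.85% to 22.1%). The cause of these shifts was not tested, apart from the stricter filter, which removes members. Replicate numbers did not pair the libraries (correlation of same-numbered deviations -0.175 to 0.261), and the block lost the call of Cd163 at day 3 against day 1 (edgeR, adjusted p = 0.0899). Of the single-gene values 579 kept their side of the threshold, 29 gained and 34 lost a call. Genes with under 10 reads in a library are limited by depth.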
